A study of Mus musculus with 14 samples.

Results

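The Notch pathway and Id genes followed here are 10 genes taken by name from a list, drawn up with earlier results of these data known, out of 21938 protein-coding genes: the ligand gene Dll1, the receptor gene Notch1, the Notch-responsive repressor genes Hes1, Hes5, Hey1 and Hey2, and the 4 Id genes Id1, Id2, Id3 and Id4. For each gene the data give the percent of a 6 kb window, 3 kb on each side of a transcription start site (TSS), that lay under listed H3K27me3 peaks, and where a gene has several starts the most covered window was used. H3K27me3 is the repressive histone mark written by Polycomb repressive complex 2. It was mapped by ChIP-seq in cerebellum of C57BL/6NCrl mice of both sexes at postnatal days 7, 14 and 60 (P7, P14 and P60), with 3 libraries per stage. A P7 library came from the most pooled mice and a P60 library from 1 mouse, so pool size changed with stage. A second experiment set 3 Kdm6b-cKO libraries (Atoh1-Cre; Kdm6b fl/fl, Cre driven by the granule neuron precursor gene Atoh1, taken at P14) against 2 Kdm6b-WT littermate libraries (Kdm6b fl/fl without Cre). The floxed Kdm6b alleles are shared by both groups. The positions in these 5 lists do not lie on the genome build of the age lists, so no value at a gene was taken from them.

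In Notch signalling a ligand such as Dll1 on one cell binds a receptor such as Notch1 on its neighbour, the receptor is cut, and its intracellular part joins the DNA-binding protein Rbpj to switch on genes of the Hes and Hey families. Hes and Hey proteins are basic helix-loop-helix repressors that hold back neuronal differentiation. Id proteins bind the partners of neurogenic helix-loop-helix factors but cannot bind DNA themselves, and BMP signals are known to induce them. In the cerebellum Hes1, Hes5 and the Id genes are used by progenitors and by glia, and granule neurons make up most cells of the mature tissue.

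Sequences just before the start were read for members whose mark is contrasted below. The following 3 are the 250 bases before the RefSeq start (GRCm38.p6), written 5′ to 3′, with capitals for the 6 bases TGGGAA or TTCCCA, the core that Rbpj is known to bind read on either strand. Hes5 and Notch1 lay under peaks at P7 and P14, and Id4 is shown because its peaks began downstream of its start.
Hes5: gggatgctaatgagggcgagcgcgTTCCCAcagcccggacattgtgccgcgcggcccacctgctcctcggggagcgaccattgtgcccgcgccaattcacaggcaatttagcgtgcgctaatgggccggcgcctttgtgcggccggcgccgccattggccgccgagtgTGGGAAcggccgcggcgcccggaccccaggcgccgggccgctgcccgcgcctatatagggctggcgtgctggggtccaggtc
Notch1: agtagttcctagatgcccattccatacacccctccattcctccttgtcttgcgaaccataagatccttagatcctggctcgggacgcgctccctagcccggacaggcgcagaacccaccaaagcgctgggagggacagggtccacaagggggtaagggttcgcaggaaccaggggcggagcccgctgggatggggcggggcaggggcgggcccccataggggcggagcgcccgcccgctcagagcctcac
Id4: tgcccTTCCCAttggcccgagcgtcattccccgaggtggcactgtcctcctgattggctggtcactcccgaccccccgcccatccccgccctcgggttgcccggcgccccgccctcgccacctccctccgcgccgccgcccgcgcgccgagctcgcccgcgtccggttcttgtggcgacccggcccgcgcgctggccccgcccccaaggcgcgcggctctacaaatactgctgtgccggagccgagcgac
The Hes5 stretch (chr4:154960673-154960922, plus strand) held this core at 2 places, beginning 226 and 82 bases before the start. The Id4 stretch (chr13:48260866-48261115, plus strand) held it once, 245 bases before the start, and the Notch1 stretch (chr2:26503823-26504072, minus strand) did not hold it. Of 32851 RefSeq promoter stretches of this length, 21.6% held the core at least once, so a match is not unusual. The E-box form CACGTG, known to be bound by Hes and Hey proteins, and its variant CACGCG on either strand were in none of the 3 stretches, and 12.9% of all stretches held one of them. The stretches had 32 CpG in Hes5, 16 in Notch1 and 35 in Id4, against a median of 6 in all promoters. RefSeq stretches were found for 7 of the 10 members, not for Hes1, Hey1 and Id1.

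Fewer of the 10 genes carried the mark at P60 than at P7 or P14, and 1 of the 8 members tested passed in each step between stages. A gene counts as marked in a library when any base of a TSS window lay under a peak. At P7 the libraries had 8, 7 and 7 marked members, at P14 they had 6, 9 and 8, and at P60 they had 0, 0 and 4. With only peaks of a −log10 q of 2 or more these counts were 7, 6 and 3 at P7, 4, 7 and 7 at P14, and 0, 0 and 1 at P60. The members marked in P60 library 3, with all peaks counted, were Dll1, Notch1, Hey2 and Id4. Over all protein-coding genes the share marked ran between 15.98 and 23.8% at P7, 12.1 and 17.5% at P14, and 7.05 and 11.1% at P60. The mean coverage of the 10 members was 5.32, 5.399 and 5.12 times the mean of all genes in the P7 libraries, 6.15, 6.16 and 4.94 times in the P14 libraries, and 0, 0 and 2.47 times in the P60 libraries. P7 and P14 overlapped on this ratio and the P60 libraries were all below them.

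**Figure D1:**
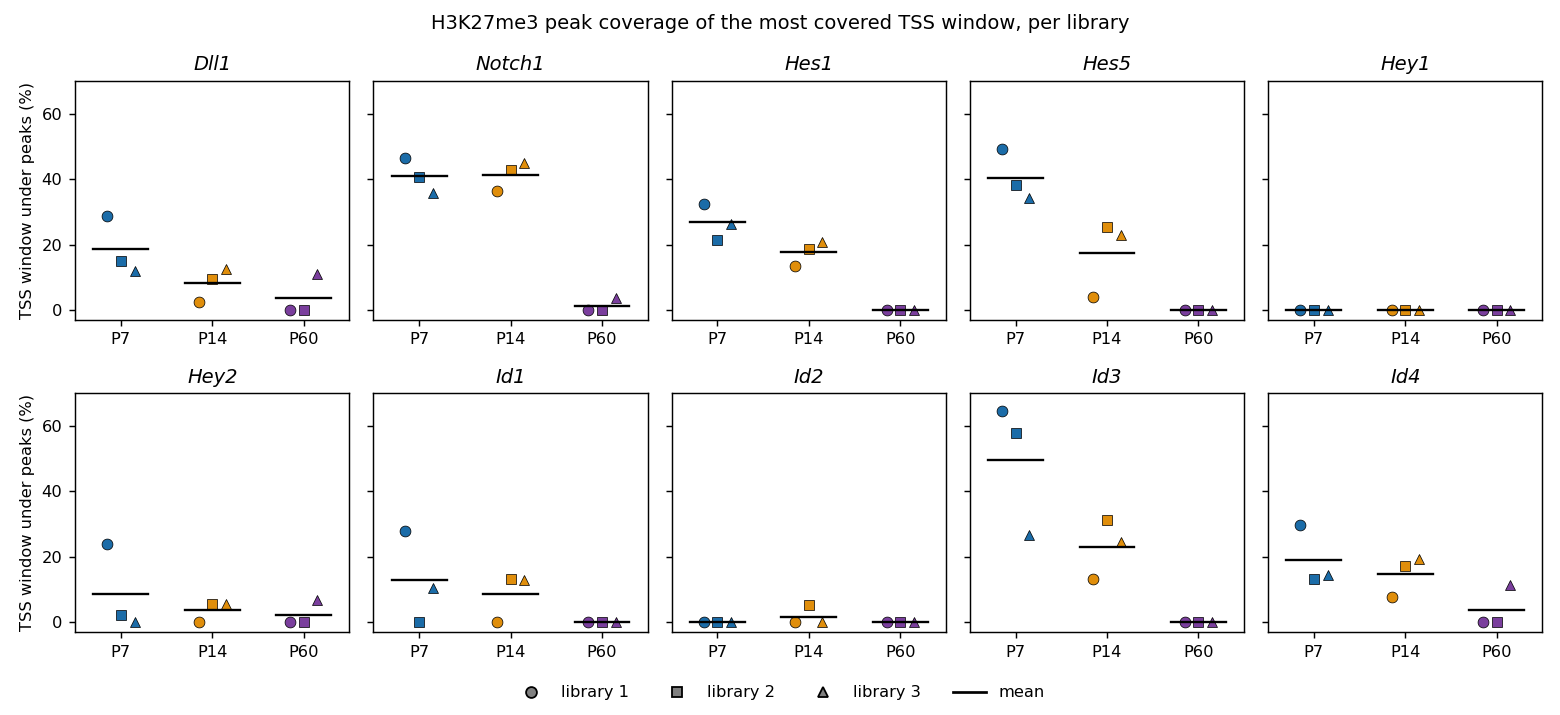
Percent of the most covered TSS window under H3K27me3 peaks (vertical axis) in each of the 9 libraries, by stage (horizontal axis), for the 10 members. Symbols are libraries and bars are means of 3. Notch1 sits between 35.9 and 46.6% at both P7 and P14, Hes5 is lower at P14 than at P7 in every library, and Hes1, Hes5, Id1 and Id3 are at 0 in all 3 P60 libraries.

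The libraries differ in how much was called. The lists held 6905 to 15600 peaks, and peaks covered 7.38 to 15.2 Mb at P7, 3.62 to 9.26 Mb at P14 and 1.48 to 3.61 Mb at P60 (two-sided exact permutation test over the stages, p = 0.0464). This p rose to 0.129 when only peaks with a −log10 q of 4 or more were counted, and was between 0.025 and 0.139 when each library was left out. P7 library 1 had the largest covered length, P14 library 1 the smallest at P14, and P60 library 3 the largest at P60. How many reads stand behind a list is unknown. The methods name a false discovery rate that equals a −log10 q of 2, but the lists go down to 1, and between 37.4 and 55.7% of the peaks of a list were below 2. Covered length therefore need not follow the amount of the mark. By western blot the paper reports more total H3K27me3 at P14 than at P7, with the rise kept at P60. Its own count test of the ChIP-seq found peaks gained as well as lost between the stages. In tissue, fewer cells carrying the mark and less mark per cell cannot be told apart. Over all genes 69.4% had no peak in a TSS window in any library. Of the marker lists used to look at the tissue label, 5 of 10 granule neuron genes had none, and all 10 forebrain genes had a peak in at least 1 library, with a list mean of 23.4 to 36.2% at P7. The granule neuron count is therefore no check of the label by itself.

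Of the 10 members, 8 were marked in 2 or more libraries and entered the test, which was limma over 5120 such genes with Benjamini-Hochberg adjustment over all of them. Hey1 and Id2 did not enter. Between P60 and P7, 5 members were lower (Dll1, Notch1, Hes1, Hes5 and Id3) and none was higher. All 8 differences were negative in this fit, though that of Hey2 was positive in some alternatives. In that comparison 45.8% of all genes tested were lower, 2347 genes against 31 that were higher, so a count of 5 among 8 tested members is not far from the background. When coverage was divided by each library's mean, 1093 genes were lower and 275 higher, and 3 members were lower (Hes1, Hes5 and Id3). The median difference was −21.03 percentage points over the 8 members tested and −11.99 points over all genes tested. In 6 members every P60 library was below every P7 library (Dll1, Notch1, Hes1, Hes5, Id3 and Id4), as in 52.1% of the genes tested.

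With P14 set between, 1 of the 8 members tested passed in each step. A pass in 1 step and a miss in the other is not a tested difference. Between P14 and P7, Hes5 alone was lower, where 11.7% of genes tested were, and the P14 libraries were all below the P7 libraries in 2 members (Hes1 and Hes5), as in 27.2% of genes. Between P60 and P14, Notch1 alone was lower, where 2.07% of genes tested were, and the P60 libraries were all below the P14 libraries in 4 members (Notch1, Hes1, Hes5 and Id3), as in 25.7% of genes. The medians over members and over all genes tested were −7.07 and −5.73 points for P14 minus P7, and −14.16 and −4.86 points for P60 minus P14. These comparisons share libraries, so their values are given side by side and not compared by a test.

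**Figure D2:**
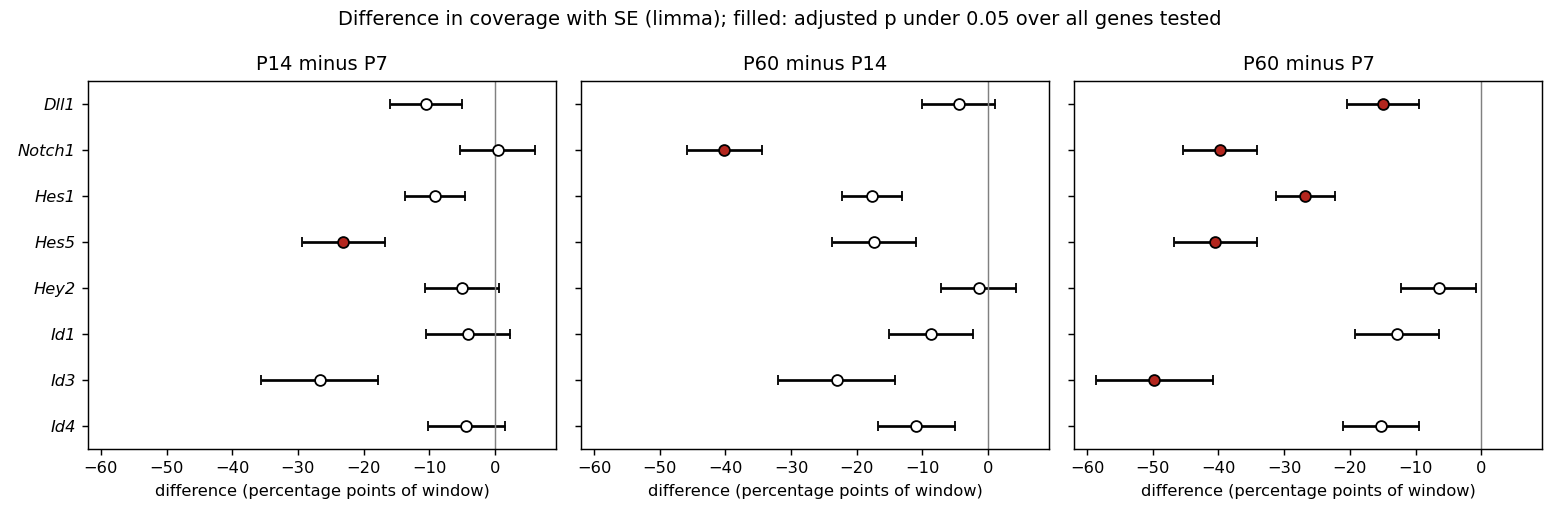
Differences in coverage of the 8 members tested, in percentage points of the window (horizontal axis), with SE bars from limma, for P14 minus P7, P60 minus P14 and P60 minus P7. Filled points have an adjusted p under 0.05 over all 5120 genes: Hes5 in the first panel (−23.07), Notch1 in the second (−40.14), and Dll1, Notch1, Hes1, Hes5 and Id3 in the third.

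Dll1 encodes the ligand by which newly committed neuronal cells signal to their neighbours. The gene lies on chr17:15367354-15376872 (minus strand, ENSMUSG00000014773.13) and has 6 annotated starts. Its coverage was 28.8, 15.1 and 11.9% in the P7 libraries, 2.33, 9.58 and 12.5% in the P14 libraries, and 0, 0 and 11.02% in the P60 libraries. P60 library 3 was within the P14 range and just under the lowest P7 library. Dll1 was lower at P60 than at P7 by limma (P60 minus P7 −14.96 points, SE 5.537, adjusted p = 0.0449), and this call is not firm. It was past the threshold in 7 of 18 alternatives, and was lost without P7 library 1 (adjusted p = 0.129), P7 library 2 (0.0566), P14 library 2 (0.0627), P14 library 3 (0.0521), P60 library 1 (0.145) or P60 library 2 (0.146).

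The Dll1 peaks did not reach its principal start, though in all the marked libraries but P14 library 1 they covered an annotated start further inside the gene, at position 15375100. They lay in a region of 1797 bp beginning 655 bp inside the gene from the start of the principal transcript (the main coding transcript of the annotation), where the long noncoding RNA gene A930024N18Rik also starts on the other strand. A second region of 1940 bp, 4126 to 6065 bp upstream of that start, was outside the window and held peaks in the same 7 libraries. There the covered length was 1633, 1538 and 1607 bp at P7, 860, 1307 and 1232 bp at P14, and 0, 0 and 132 bp at P60. The P7 libraries were all above the P14 libraries and these above the P60 libraries. The P60 peak was thus a small part of the P7 peaks upstream. Inside the gene the covered length was 1730, 907 and 716 bp at P7 and 0, 0 and 661 bp at P60. The P60 peak inside the gene had a −log10 q of 1.432, under the stated threshold.

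Notch1 encodes the receptor that is cut to give the nuclear co-activator of Rbpj. The gene lies on chr2:26457903-26516663 (minus strand, ENSMUSG00000026923.15), and the mark lay around the start of its principal transcript, at position 26503822, which is also the RefSeq start. Coverage was 46.6, 40.6 and 35.9% in the P7 libraries, 36.4, 42.8 and 45.0% in the P14 libraries, and 0, 0 and 3.80% in the P60 libraries. P7 and P14 overlapped almost wholly, with means of 41.0 ± 5.40% and 41.4 ± 4.47% (SD, n = 3 each), and all 3 P60 libraries were far below.

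By limma the P14 minus P7 difference of Notch1 was 0.389 points and did not pass (SE 5.692, adjusted p = 0.986). It was lower at P60 than at P14 (P60 minus P14 −40.14 points, SE 5.692, adjusted p = 0.0329), and P60 minus P7 was −39.76 points (SE 5.692, adjusted p = 0.000826). The call against P7 held in 17 of 18 alternatives and was lost only with coverage divided by the library mean (adjusted p = 0.1002). The call against P14 was past the threshold in 10 of 18, and was lost when P7 library 2 (adjusted p = 0.0747), P7 library 3 (0.0630), P14 library 2 (0.187), P14 library 3 (0.128), P60 library 1 (0.201) or P60 library 2 (0.204) was left out. It was also lost with peaks of a −log10 q of 4 or more (0.350) and with a replicate block (0.122). In all these fits no gene tested was called between P60 and P14, and the Notch1 difference lay between −29.27 and −40.14 points.

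In all 6 libraries of P7 and P14 a single peak covered the Notch1 start, from 436 to 836 bp before it to 1415 to 1991 bp after it, so the printed Notch1 stretch lay under it in all 6. Its width was 2797, 2436 and 2151 bp at P7 and 2185, 2568 and 2701 bp at P14. Ranked by −log10 q within its own list, the peak stood above 94.8, 85.8 and 83.8% of the peaks at P7 and above 53.6, 85.2 and 89.5% at P14. The only P60 peak, in library 3, was 228 bp wide, lay 1902 to 2129 bp inside the gene and stood above 19.1% of its list. It had a −log10 q of 1.44, under the stated threshold. The most 5′ annotated start, upstream at position 26516663, had no peak in its window in any library.

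**Figure D3:**
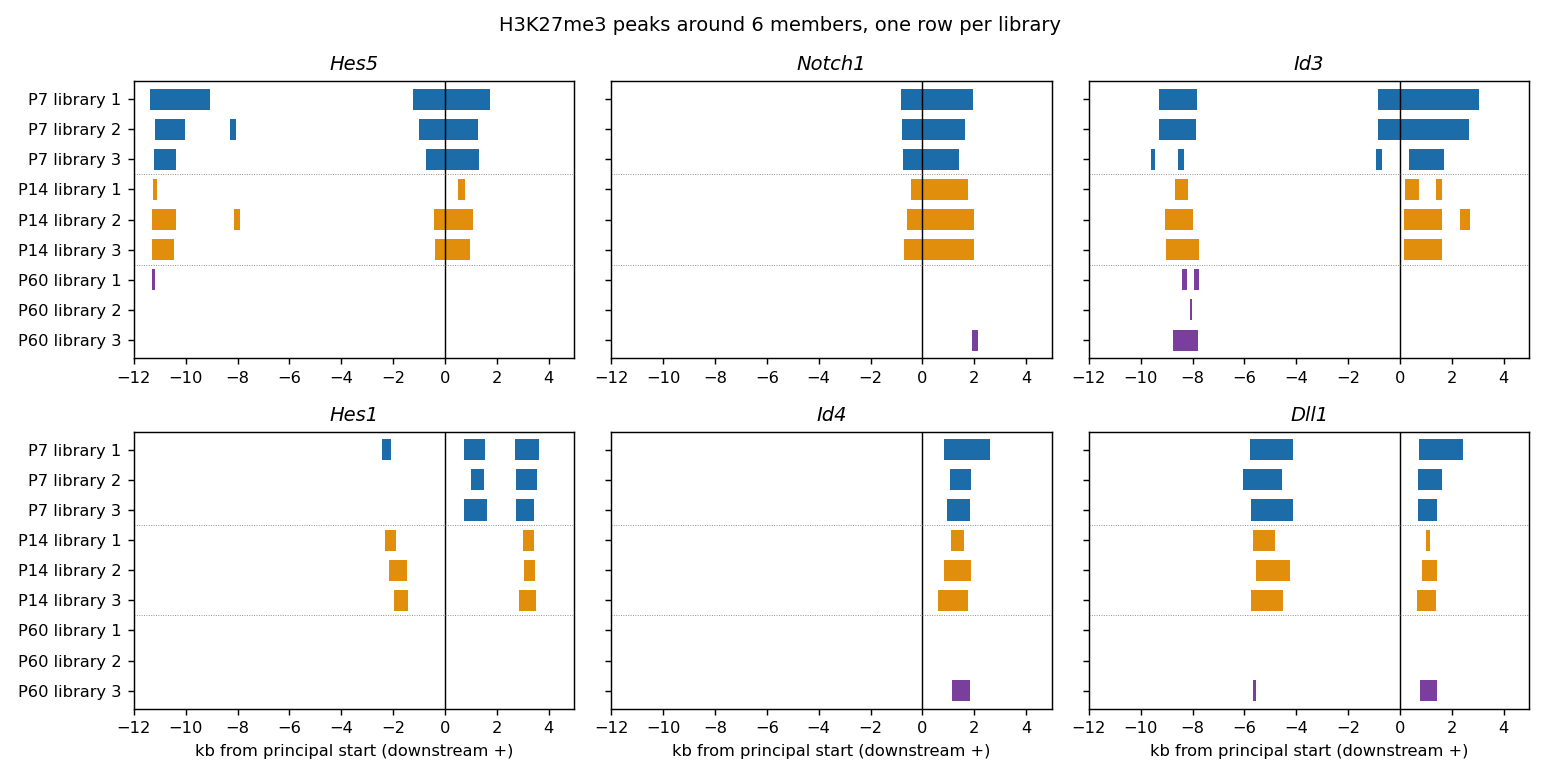
H3K27me3 peaks (bars) in each of the 9 libraries (rows, by stage) around 6 members, by distance in kb from the principal start (vertical line, transcription to the right). Hes5 and Notch1 are covered at the start at P7, the Hes5 peak is narrower at P14 and the Notch1 peak is not, and Id3 has an upstream region with a peak in all 9 libraries.

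Hes5 encodes a repressor that Notch switches on in neural progenitors and glia. It is a short gene on chr4:154960923-154962371 (plus strand, ENSMUSG00000048001.7), and the noncoding gene Gm20421 starts on the other strand within its windows. Coverage was 49.1, 38.2 and 34.1% in the P7 libraries, 4.08, 25.3 and 22.8% in the P14 libraries, and 0% in all 3 P60 libraries. The 3 stages did not overlap at any pair, and P14 library 1, which has the shortest covered length at P14, was far below the other two.

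Hes5 was lower at P14 than at P7 (P14 minus P7 −23.07 points, SE 6.362, limma adjusted p = 0.0383), and P60 minus P7 was −40.48 points (SE 6.362, adjusted p = 0.00106). The P60 minus P14 difference of −17.41 points missed the threshold (SE 6.362, adjusted p = 0.122). The SE is pooled over the 3 stages, where the SD was 7.759 at P7, 11.61 at P14 and 0 at P60. The P60 libraries, all at 0, thus lower the SE of the P14 minus P7 comparison, which uses none of them. The call against P7 at P60 was past the threshold in all 19 alternatives, with a highest adjusted p of 0.0103. The call at P14 was past it in 7 of 19. It was lost when P7 library 1 (adjusted p = 0.109), P7 library 2 (0.0630), P14 library 1 (0.0839), P14 library 2 (0.0615), or P60 library 1 (0.0691), 2 (0.0696) or 3 (0.0605) was left out, and with coverage divided by the library mean (0.317), log2 coverage (0.209), 1 kb flanks (0.0960), a filter of 1 marked library (0.0553) or a replicate block (0.0896).

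The median width of all listed peaks was 751, 485 and 622 bp in the P7 libraries and 269, 454 and 580 bp in the P14 libraries. Whether narrowing at Hes5 went beyond that of the lists was not tested. The Hes5 peak was shorter at P14 than at P7, drawn in at both ends. It ran from 1217, 1002 and 718 bp before the start to 1729, 1290 and 1327 bp after it in the P7 libraries, and from 431 and 386 bp before the start to 1088 and 982 bp after it in P14 libraries 2 and 3. P14 library 1 had only 245 bp, 522 to 766 bp inside the gene. The printed Hes5 stretch with both Rbpj cores therefore lay under a peak in 3 P7 libraries, in 2 P14 libraries and in no P60 library. An intergenic region of 2303 bp, 9081 to 11383 bp upstream, was also marked in every P7 and P14 library. Its covered length was 2303, 1155 and 842 bp at P7, 166, 931 and 856 bp at P14, and 127, 0 and 0 bp at P60, and here P7 and P14 overlapped.

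Hes5 and Notch1 had nearly the same coverage at P7 and not at P14. Within a library, Hes5 minus Notch1 was 2.5, −2.38 and −1.75 points at P7, and −32.33, −17.47 and −22.20 points at P14. Every P14 value was below every P7 value. The mean gap was −24.00 points at P14 and −0.544 points at P7, a difference of −23.46 points (two-sided exact permutation test over the 6 libraries, p = 0.1, the smallest this design allows, for a pair chosen after its values were seen). At P60 the gap was 0, 0 and −3.80 points, with Hes5 at 0 in all 3.

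Hes1 encodes the related repressor that is also expressed in rhythm in progenitors. The gene lies on chr16:30064384-30067796 (plus strand, ENSMUSG00000022528.8). Coverage was 32.5, 21.5 and 26.4% in the P7 libraries, 13.5, 18.7 and 20.8% in the P14 libraries, and 0% in all 3 P60 libraries. No stage overlapped another, though the lowest P7 and highest P14 libraries were close. Hes1 was lower at P60 than at P7 by limma (P60 minus P7 −26.78 points, SE 4.54, adjusted p = 0.00134), and P60 minus P14 was −17.66 points (SE 4.54, adjusted p = 0.0546). The P60 minus P7 call held in 17 of 18 alternatives, with the exception of peaks of a −log10 q of 2 or more, under which P7 library 3 and P14 library 1 had no Hes1 peak left (adjusted p = 0.156).

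Unlike Hes5 and Notch1, Hes1 had no peak over its principal start in any library. The mark flanked it, and in P7 libraries 1 and 3 a peak covered 2 annotated starts further in, at positions 30066097 and 30066338. A region 724 to 1613 bp inside the gene held peaks in all 3 P7 libraries (823, 486 and 890 bp) and in no P14 or P60 library. The peaks of P7 libraries 2 and 3 there were under the stated threshold (−log10 q 1.521 and 1.468). A region just past the gene, 2686 to 3629 bp from the start, held 944, 805 and 691 bp at P7 and 444, 423 and 693 bp at P14. Upstream, 1425 to 2433 bp before the start, the order was turned round, with 371, 0 and 0 bp at P7 and 422, 701 and 553 bp at P14. All P14 libraries were above all P7 libraries there, and none of the 3 regions held a peak at P60. The upstream peak of P14 library 1 was under the stated threshold (−log10 q 1.695), and that of P7 library 1 was not (2.102). Without peaks under it, P14 library 1 fell below P7 library 1 upstream, and P7 and P14 overlapped there.

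Hey1 and Hey2 encode the other Notch-induced repressors, best known from vessels and heart. Hey1 (chr3:8663359-8667256, minus strand, ENSMUSG00000040289.8) had no peak within 15 kb of its start in any of the 9 libraries. Hey2 (chr10:30832359-30842801, minus strand, ENSMUSG00000019789.9) had 24.0, 2.27 and 0% coverage in the P7 libraries, 0, 5.62 and 5.53% in the P14 libraries, and 0, 0 and 6.77% in the P60 libraries. The stages overlapped, P7 library 1 stood apart, and no difference passed the test (P60 minus P7 −6.49 points, adjusted p = 0.360). The sign of P60 minus P7 was not stable. It was 2.256 points with peaks of a −log10 q of 2 or more and with 6905 peaks per list. Without P7 library 1 it was 1.122 points, and with coverage divided by the library mean it was 0.0649. The Hey2 peaks lay 1508 to 2991 bp upstream. Inside the TSS windows it was the only member with a P60 peak at a −log10 q of 2 or more (2.76, in library 3).

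Id1 encodes an Id protein that BMP signals induce. The gene lies on chr2:152736251-152737410 (plus strand, ENSMUSG00000042745.9). Coverage was 28.0, 0 and 10.6% in the P7 libraries, 0, 13.1 and 13.1% in the P14 libraries, and 0% in all 3 P60 libraries. P7 and P14 overlapped, and P7 library 2 and P14 library 1 were at 0. Where a peak was listed it covered the start, in 4 libraries. The P60 minus P7 difference was −12.87 points and did not pass the test (limma adjusted p = 0.117), except without P7 library 2, the P7 library with no Id1 peak (adjusted p = 0.0301).

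Id2 (chr12:25093799-25097140, minus strand, ENSMUSG00000020644.9), which is widely expressed in developing and adult brain, was marked in its window only in P14 library 2, at 5.22%. Its main peaks fell just outside. A region of 1433 bp, 3048 to 4480 bp upstream, held 1328, 643 and 919 bp at P7, 0, 822 and 752 bp at P14, and 0, 0 and 220 bp at P60. It overlapped no annotated gene, and P7 and P14 overlapped. The window rule thus leaves out most of the mark near Id2.

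Id3 had the highest mean coverage of the 10 genes at P7, though Notch1 and Hes5 were above it in P7 library 3. The gene lies on chr4:136143497-136145755 (plus strand, ENSMUSG00000007872.3). Coverage was 64.5, 58.0 and 26.8% in the P7 libraries, 13.2, 31.4 and 24.6% in the P14 libraries, and 0% in all 3 P60 libraries. P7 library 3 was within the P14 range, and no P60 library reached the others. With only peaks of a −log10 q of 2 or more, coverage was 64.5, 58.0 and 0% at P7. At P14 it was then 9.15, 24.5 and 24.6%, so P7 library 3 was below the P14 range. Id3 was lower at P60 than at P7 by limma (P60 minus P7 −49.76 points, SE 8.927, adjusted p = 0.00173), a call past the threshold in all 18 alternatives that could be fitted, with a highest adjusted p of 0.0470. The P14 minus P7 difference of −26.70 points missed it (SE 8.927, adjusted p = 0.0768), but passed without P7 library 3 (adjusted p = 0.00522).

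At P7, in libraries 1 and 2, a broad peak ran across the Id3 gene from 831 and 825 bp before the start to 3038 and 2652 bp after it. In P7 library 3 and in all P14 libraries the principal start at position 136143497 was uncovered and the peaks began inside the gene, at 369 bp in P7 library 3 and at 147 to 185 bp at P14. The P14 peaks still covered the annotated start further in, at position 136143864. P7 library 3 also had a separate peak of 258 bp, 678 to 935 bp before the start. Both peaks of P7 library 3 here were under the stated threshold (−log10 q 1.874 inside the gene and 1.686 before it). At P60 nothing was left within this region. Another region, 7738 to 9275 bp upstream (chr4:136134222-136135759) and in no annotated gene, behaved otherwise. It held 1445, 1421 and 212 bp of peaks in the P7 libraries, 493, 1072 and 1264 bp in the P14 libraries, and 400, 72 and 948 bp in the P60 libraries. The stages overlapped, and it was the one region around a member with a peak in all 9 libraries. Only 5 of the 9 had a peak there with a −log10 q of 2 or more, P7 library 1, P14 libraries 2 and 3, and P60 libraries 2 and 3.

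The part of this region that the most libraries shared is printed with its CpG in capitals. It is 56 bases under peaks in 8 of 9 libraries (chr4:136135102-136135157, GRCm38.p6, plus strand). At P60 it lay under a peak in library 3 (−log10 q 3.911) and in library 1 (1.239, under the stated threshold).
Id3 upstream: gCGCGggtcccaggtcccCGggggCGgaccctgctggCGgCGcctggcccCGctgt
It has 7 CpG in 56 bases and lies 8340 bp from Id3, the nearest protein-coding gene. The library not under it was P60 library 2, whose 72 bp peak lay 8028 to 8099 bp upstream of the Id3 start.

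**Figure D4:**
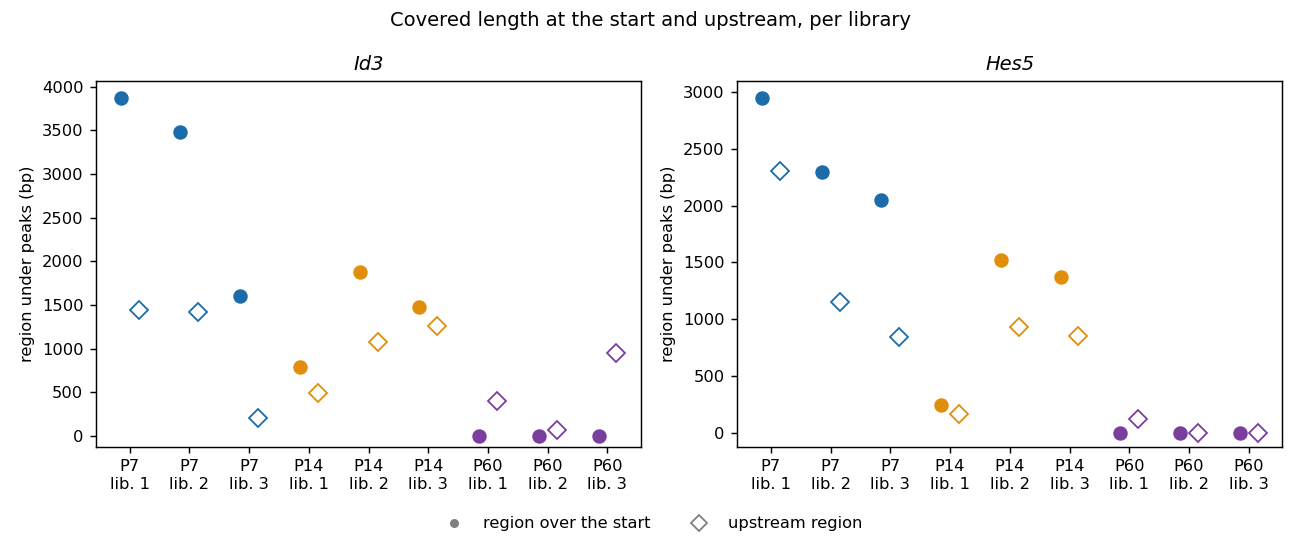
Length under H3K27me3 peaks in bp (vertical axis) for the region over the start (circles) and the upstream region (diamonds) of Id3 and Hes5, in each of the 9 libraries in stage order (horizontal axis). At P60 the Id3 start region is at 0 in 3 libraries while the upstream region has 400, 72 and 948 bp, and at Hes5 the upstream region has 127, 0 and 0 bp.

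Id4 encodes the Id protein that acts in neural stem cells and early glia. The gene lies on chr13:48261228-48266026 (plus strand, ENSMUSG00000021379.2), with the noncoding genes A330033J07Rik and Gm49291 starting on the other strand inside its window. Coverage was 29.7, 13.1 and 14.6% in the P7 libraries, 7.83, 17.1 and 19.3% in the P14 libraries, and 0, 0 and 11.5% in the P60 libraries. P7 and P14 overlapped, and P60 library 3 lay within the P14 range. The P60 minus P7 difference was −15.28 points at the edge of the threshold (SE 5.828, limma adjusted p = 0.0502). It passed in 8 of 19 alternatives, among them peaks of a −log10 q of 2 or more, where P60 library 3 had no Id4 peak (−19.11 points, adjusted p = 0.0166). The peaks lay 586 to 2603 bp inside the gene in all 7 marked libraries, so the printed stretch before the Id4 start, the richest in CpG of the 3, had no peak in any library.

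Around the 10 principal starts, within 15 kb, the 9 lists formed 19 separate regions. Of these, 11 held a peak in all 3 P7 libraries, and 9 of the 11 did so in all 3 P14 libraries (81.8%), against 60.2% of the 5979 regions genome-wide with a peak in all 3 P7 libraries. At least 1 P60 library had a peak in 7 of the 11 (63.6%), against 60.4% genome-wide, and all 3 P60 libraries in 1 of the 11 (9.09%), the one upstream of Id3, against 27.2%. Regions around a gene are not independent and no test was made. A peak covered the principal start of 4, 3 and 3 members at P7, of 1, 3 and 3 at P14, and of none at P60.

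The other genes of the pathway are given by role, and their counts lower at P60 than at P7 stand beside 45.8% of all genes tested. Of 7 further ligand genes 6 were tested and 4 were lower at P60 than at P7: Jag2 (−32.58 points, adjusted p = 0.00263), Dlk1 (−27.72), Dll4 (−23.34) and Jag1 (−20.68). Their means ran differently over the stages. Dll4 had a mean of 28.5% at P7, 0% at P14 and 5.14% at P60, and was lower at P14 than at P7 (limma P14 minus P7 −28.48 points, adjusted p = 0.0101), whereas the Jag1 means were 27.7% in P7 libraries, 36.4% in P14 libraries and 6.99% in P60 libraries. Of the 3 other receptor genes only Notch3 was marked in 2 or more libraries, with means of 5.92% at P7, 18.2% at P14 and 8.18% at P60, and no difference passed (P60 minus P7 adjusted p = 0.707).

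Among 22 genes for processing and trafficking, 15 were marked in none of the 9 libraries (68.2%, close to the 69.4% of all genes), 6 were tested and 5 were lower at P60 than at P7. These included Lfng, which adds sugars to Notch (−36.29 points, limma adjusted p = 0.0016), Nrarp, a Notch-induced inhibitor (−35.08), and Dtx4 (−29.63) and Dtx1 (−22.00), which tag the receptor with ubiquitin. Lfng had means of 36.9% at P7, 31.7% at P14 and 0.606% at P60 and, like Notch1, was lower at P60 than at P14 (adjusted p = 0.0419). In the nuclear complex 8 of 10 genes had no peak in any library, against 69.4% of all genes, and Rbpj, the 1 gene that entered the test, had a mean of 9.68% at P7 and 0% at P14 and P60 and did not pass (P60 minus P7 limma adjusted p = 0.0937).

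Of 8 other Hes and Hey family genes 7 were tested and 6 were lower at P60 than at P7, with Hes2 (−37.66 points, limma adjusted p = 0.00254), Helt (−29.31), Hes7 (−19.73) and Bhlhe41 (−19.59) the largest differences. Hes7 and Bhlhe41 were at 0% at P14 already, and both were lower at P14 than at P7 (adjusted p = 0.0327 and 0.00415). Of 12 Id partners and BMP input genes, 7 had no peak in any library, 3 were tested, and Smad6, an inhibitor of BMP signals, was the 1 gene that was lower at P60 (−50.54 points, adjusted p = 0.00182). Medians over the tested genes of these lists for P60 minus P7 were −22.01 points for ligands, −25.81 for processing, −19.59 for the Hes and Hey family and −5.31 for the Id partners, beside −11.99 over all genes tested.

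Markers of some other cell types were also lower at P60 than at P7, beside the 45.8% of all genes tested. By limma these were 8 of 10 tested forebrain markers, 4 of 6 tested endothelial and mural markers, 4 of 6 tested oligodendrocyte lineage markers, 1 of 5 tested astrocyte and Bergmann glia markers and 1 of 2 tested granule neuron markers, of 10 genes in each list. C1qa, the 1 microglia marker that entered the test, did not pass. For endothelial and mural markers the list mean was 15.2 to 23.0% at P7, 7.44 to 17.1% at P14 and 0.547 to 6.74% at P60. For the oligodendrocyte lineage it was 13.6 to 19.4% at P7, 7.50 to 17.4% at P14 and 0.283 to 4.16% at P60. For astrocytes and Bergmann glia it was 2.75 to 7.31% at P7, 1.81 to 10.4% at P14 and 0 to 2.17% at P60. The part of cell composition in the members' values was not tested.

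Each member marked in 5 or more libraries was set against all genes on other windows by the distance of its coverage over the 9 libraries. Hes5 was nearest to Tgfa (distance 9.12 points) and Trp73 (9.51), Notch1 to Mn1 (9.71) and Ihh (10.0), and Hes1 to Cmtm7 (5.14) and Gpc5 (6.18). Id3 was nearest to Lhx9 (15.4) and Fgfr2 (18.0), Id4 to Anxa2 (5.53) and Nhsl1 (7.68), Dll1 to Zfp385c (5.86) and Tor4a (7.30), and Hey2 to H2-DMb2 (6.21) and Il20ra (7.14). Mn1 showed the late course of Notch1, with 44.8, 43.3 and 42.5% at P7, 33.4, 44.2 and 46.2% at P14 and 0, 0 and 9.0% at P60. Trp73 showed the course of Hes5, with 42.0, 41.7 and 37.4% at P7, 3.02, 25.8 and 18.9% at P14 and 0% at P60. No member was among the 2 nearest genes of another.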

How the data were processed

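Chromatin of mouse cerebellum was precipitated for H3K27me3 and read as single ends. The submitters' processing notes name FastQC, Trimmomatic 0.38, STAR 2.7.2b, MACS2 2.1, bedtools 2.25.0 and DESeq2 1.36.0, and the mm10 build. Broad peaks were called by the authors per library. Each deposited list gives a fold enrichment (a ratio to the library's own background), a −log10 p, a −log10 q and a score made from it. In the deposited lists −log10 q was used only as a filter and a rank within a list. The lists hold no read counts, so the depth behind a value is unknown and the study's count test was not repeated.

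The 10 members and the gene lists were chosen with earlier results of these data known. TSS windows of 21938 protein-coding genes (GENCODE release M21, GRCm38) were intersected with peaks, which gave percent coverage of the deposited peaks. Stages were compared over all 9 libraries in 1 fit with limma 3.58.1 in R 4.3.3 (trend, robust variance) on genes marked in 2 or more libraries, a threshold of 0.05 and no covariate. The step was also run on simulated normal values set well above 0. These lack the many zeros of the lists, so that run does not check the fit on them. Covered length used exact permutation tests. Every member is named with its values. Of the other lists, the genes with the largest P60 minus P7 difference were named, up to 4 per list. Alternatives were a −log10 q of 2 or of 4 or more, peaks of 300 bp or more, 6905 peaks per list, 1 kb flanks, the 5′ end only, scaled or log2 coverage with 1 point added, a looser filter, a replicate block, and each library left out. Python 3.11.15 and numpy 2.4.6 were used, and sequences came from RefSeq (GRCm38.p6).

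The 5 knockout lists carry the same build label, but shared positions with the P14 lists at a Jaccard index of 0.00659 to 0.0148, where age lists reached 0.0872 to 0.431. They were not placed at genes or converted. Replicates are called biological in the series record, and p-values measure the spread between these libraries. The study's methods name 1 antibody for the ChIP, while the catalogue number in the labels takes 12 values over 14 libraries.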

Additional observations from a re-analysis of the deposited data

How the results depend on the processing

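Hes5 and Id3 were lower at P60 than at P7 under every alternative that could be fitted for them, and no called difference changed its sign. The count of members lower at P60 than at P7 (5) was 2 with peaks of a −log10 q of 4 or more (Hes5 and Notch1, at −40.48 and −41.02 points, of the 3 members that were still tested, so Dll1, Hes1 and Id3 were not tested there) and 3 with coverage divided by the library mean, and 4 to 6 when each library was left out. The count lower at P14 than at P7 (1, Hes5) was 0 with 1 kb flanks, with genes marked in 1 or more libraries, with scaled coverage and with log2 coverage, and 0 to 2 when each library was left out. The count lower at P60 than at P14 (1, Notch1) was 0 with a −log10 q of 4 or more, 0 with the 5′ end only, where the most 5′ start of Notch1 has no peak and the gene was not tested, 2 with peaks of 300 bp or more, 2 with 1 kb flanks, 3 with scaled coverage and 4 with log2 coverage, and 0 to 3 when each library was left out. The covered length of the lists gave an exact permutation p = 0.129 with a −log10 q of 4 or more and 0.025 to 0.139 when each library was left out. For the replicate block, same-numbered libraries of different stages had correlated deviations between −0.216 and 0.249, so the numbers do not pair the libraries. With the block the 3 counts were 4, 0 and 0, beside 39.9, 4.55 and 0% of all genes tested. Over all genes, the share lower at P60 than at P7 was 45.8%, 26.0% with a −log10 q of 4 or more and 21.3% with scaled coverage. Between P60 and P14 it was 2.07%, and 0% with a −log10 q of 4 or more. It was 6.44% with peaks of 300 bp or more, 11.8% with 1 kb flanks, 8.44% with scaled and 18.6% with log2 coverage. Between P14 and P7 it was 11.7%, 11.5% with 1 kb flanks and 6.74% with genes marked in 1 or more libraries. It was 7.03% with scaled and 8.59% with log2 coverage. With each library left out, the 3 shares in this order were 31.4 to 54.8%, 0 to 21.9% and 3.52 to 19.6%. Beyond the members that dropped out of a test, the cause of these shifts was not tested. The filter on a −log10 q of 2 and the filter of 1 library were chosen after seeing the data. No fit without any filter is given, and most genes are at 0 in every library. The knockout comparison at genes was not run. The depth behind each list is unknown, so a missing peak says only that none was listed.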

Other observations

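The knockout lists cannot be set at the members, but their totals differ. Listed peaks covered 13.1, 19.9 and 22.2 Mb in the Kdm6b-cKO libraries and 2.86 and 6.40 Mb in the Kdm6b-WT libraries (two-sided exact permutation test, p = 0.1, the smallest that 3 against 2 libraries allow). The Kdm6b-cKO libraries were all above the Kdm6b-WT libraries, with 16574 to 34000 peaks against 6188 and 7673. The depth behind these lists is unknown, so the totals need not follow the amount of the mark. In its own count test the paper reports both higher and lower peaks in the knockout.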
